A study of Mus musculus with 5 samples.

Results

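Fto, the enzyme that removes methyl groups from adenosines in RNA, was described together with 3 neighbours on chromosome 8 (Rpgrip1l, Irx3 and Irx5) and with 5 other genes of the same RNA mark (Alkbh5, Mettl3, Mettl14, Wtap and Ythdf2). Fto was selected on its own values, because its counts differed between the 2 Gpnmb+ pools, so its values are given as a description with no test. The other 8 genes were listed by position or function and were tested between genotypes. The set held 9 of the 56941 gene identifiers in the table, and all 9 passed the filter for low counts (10 in any pool), as did 19713 genes in total.

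The tissue was the iridocorneal angle, the ring between iris and cornea through which aqueous humor leaves the eye, taken from untreated 12 month old male and female mice. DBA/2J mice, a model of pigmentary glaucoma that lacks functional Gpnmb, gave 3 pools. The control strain DBA/2J-Gpnmb+/SjJ (Gpnmb+ below), which has the same background with a functional Gpnmb allele, gave 2 pools. Each pool was described as 3 mice, but the library names list 2 animals in each Gpnmb+ pool, so each value averages over animals and the spread is that between pools. The dissection left remnants of iris and ciliary body on the ring.

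N6-methyladenosine (m6A) is the most abundant internal modification of messenger RNA. A writer complex built on Mettl3, the catalytic subunit, and Mettl14, its RNA-binding partner, places the mark, and Wtap holds this pair in nuclear speckles. Fto and Alkbh5 are the erasers, oxygenases of the AlkB family, and Ythdf2 is a cytoplasmic reader that sends marked transcripts to decay. Fto is also known from its locus: in humans, body weight variants in its introns act over long distances on the transcription factors Irx3 and Irx5, and the adjacent gene Rpgrip1l encodes a protein of the ciliary transition zone that starts beside Fto on the opposite strand.

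The counts on genes summed to between 43900661 and 49837758 per pool. Gpnmb, the gene that separates the strains, ranged from 1946 to 2234 counts over the DBA/2J pools and reached 110568 and 129659 over the Gpnmb+ pools. All 8 markers of the trabecular meshwork, the filter tissue of the angle, were detected, with summed levels of 1228 to 1457 CPM (counts per 1000000 counts of the library) in DBA/2J and 1807 to 1845 CPM in Gpnmb+. The Gpnmb+ libraries went against their label of male and female mice: the Y-linked gene Ddx3y had 0 and 4 counts there, against 3608, 4168 and 1567 in DBA/2J. Xist, transcribed from the inactive X chromosome, had 7843 and 9152 counts in Gpnmb+ against 596, 0 and 2417 in DBA/2J. Genotype and the sex of the pooled mice therefore cannot be told apart in any comparison of the 2 genotypes below.

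Fto (ENSMUSG00000055932) spans 355.118 kb of the plus strand of chromosome 8, from 92039953 to 92395070 in GRCm39, and its canonical transcript has 9 exons. Rpgrip1l (ENSMUSG00000033282) runs on the minus strand from 92040016 down to 91943658. The GENCODE first exons of the 2 genes therefore share 64 bases, where reads cannot be assigned unless strand is used, and the strand setting of the counting was not given. RefSeq places the starts farther apart, with 302 bases between them (92040153 for Fto and 92039850 for Rpgrip1l after its windows were matched to GRCm39). The 300 bases before the RefSeq start of Fto held 60.7% G or C and 22 CpG dinucleotides. The median was 7 CpG dinucleotides in 32851 RefSeq promoter windows of the same length. Unlike this stretch, those windows reach past the start of their gene, here and for the motif shares below.

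Because Fto and Rpgrip1l start from the same stretch but differed in their values, as given below, this stretch was searched on both strands for 4 motifs, chosen after the stretch was seen. The stretch held no GGGCGG, which occurs in 35.7% of all windows, and no CCAAT, which occurs in 37.4%. It also held no TATAAA, found in 13.6%. It did hold 1 match to the motif named after Zfp143, a zinc finger activator of housekeeping promoters, which occurs in 2.27% of windows. Among the 7 genes of the set with a RefSeq window, those of Fto and Rpgrip1l held the motif, and both windows contain the same copy. The match lies on the minus strand at chr8:92039934-92039946 (GRCm39), 7 bases before the GENCODE start of Fto. By GENCODE it lies in the first exon (5′ untranslated region) of Rpgrip1l, and by RefSeq it lies upstream of the starts of both genes. It is printed below on the plus strand, with the match in capitals and 8 bases on either side.
Fto-Rpgrip1l: ttacccacTGGGAAATGTAGTtctccgta
This is a match of letters, and binding was not measured.

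Fto RNA was nearly constant in DBA/2J and unequal in Gpnmb+. DBA/2J pools 1 to 3 held 5136, 5267 and 5046 reads of Fto, and Gpnmb+ pools 1 and 2 held 1069 and 3686. Scaled to library size, these were 115.5, 122.7 and 113.1 CPM in DBA/2J against 21.1 and 75.4 CPM in Gpnmb+. Every DBA/2J pool lay above both Gpnmb+ pools, and the lowest DBA/2J pool was 1.50-fold above the higher Gpnmb+ pool. The group levels were 117.1 ± 4.98 CPM (SD, n = 3) in DBA/2J and 48.2 ± 38.4 CPM (SD, n = 2) in Gpnmb+, so the mean of the Gpnmb+ group describes neither of its pools.

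Gpnmb+ pool 1 was at 18.0% of the DBA/2J mean and Gpnmb+ pool 2 at 64.3%. In other words, DBA/2J was 5.56-fold above pool 1 and 1.55-fold above pool 2. The level of pool 2 was 3.57-fold that of pool 1, a log2 difference (pool 1 minus pool 2) of -1.84. Whether mice within a pool differed cannot be seen. The fitted log2 difference between genotypes was 1.28 for Fto. It was 2.48 with Gpnmb+ pool 2 left out and 0.64 with Gpnmb+ pool 1 left out, so its size was set by which Gpnmb+ pool was used, while DBA/2J stayed higher in both cases.

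**Figure D1:**
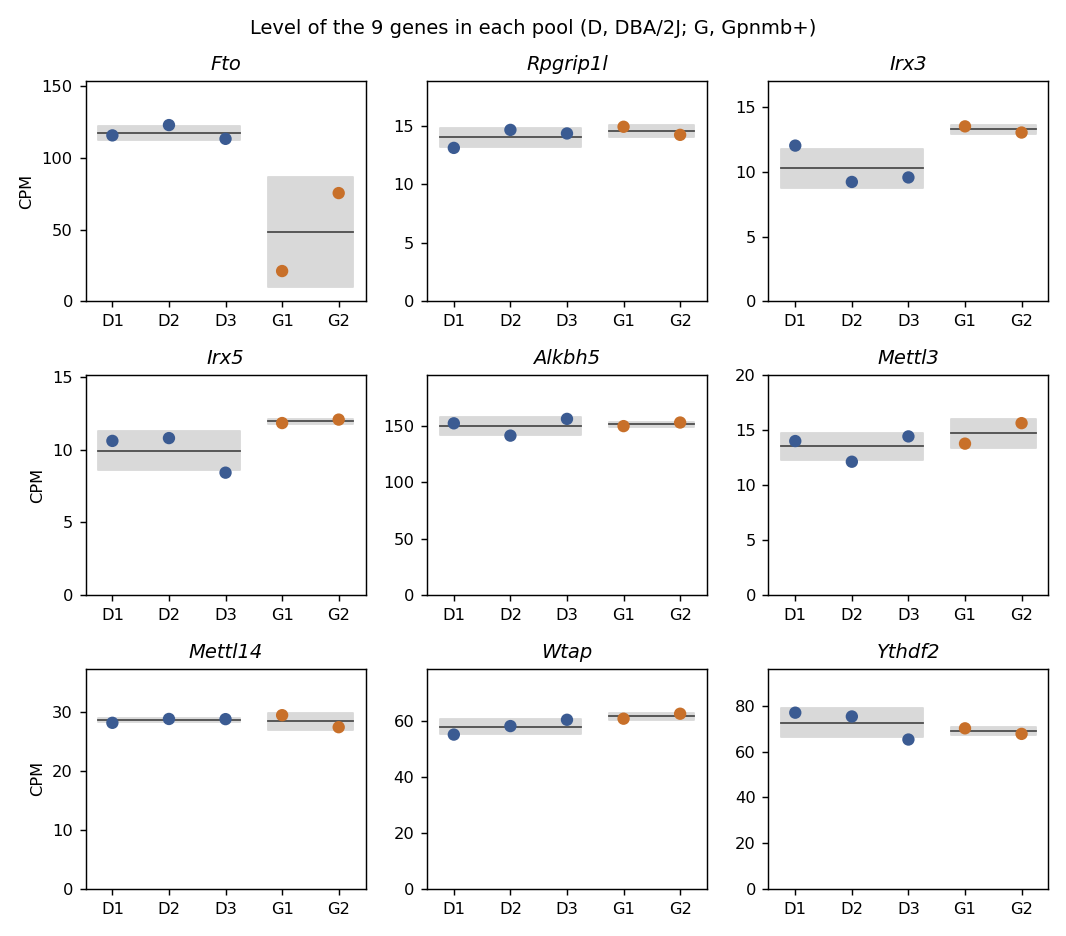
Level in CPM (vertical axes, from 0) of the 9 genes in each pool (D1 to D3, DBA/2J pools 1 to 3; G1 and G2, Gpnmb+ pools 1 and 2). Points are pools, lines the group means and grey bands ± 1 SD. Fto was at 21.1 and 75.4 CPM in the Gpnmb+ pools, whereas the other 8 genes had close values in both.

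Differences of this size between the 2 Gpnmb+ pools were uncommon among well expressed genes. Fto was chosen for its difference between these pools, so its place among these genes describes the choice and tests nothing. At least 2-fold separated the 2 Gpnmb+ pools for 9.82% of all 19713 genes, many of them with few counts. Among the 10467 genes with a mean of at least 10 CPM, 238 (2.27%) were 2-fold apart and 72 (0.688%), Fto included, were at least as far apart as Fto. Of these 72, 34 were as low in pool 1 and 38 as low in pool 2. The 3 DBA/2J pools of Fto spanned 0.12 on the log2 scale, which 2208 of the 10467 genes (21.1%) matched or undercut. None of the other 71 genes that were as far apart did so, and the next smallest span among them was 0.13.

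Of the 34 genes as low in Gpnmb+ pool 1, Fto was the only gene whose DBA/2J pools all lay above both Gpnmb+ pools. The other 33 included all 7 photoreceptor markers of the list used here, among them Sag (arrestin), whose RNA is not native to the angle. Summed over the 7, they reached 298, 404 and 281 CPM in DBA/2J against 170.2 and 967 CPM in Gpnmb+ pools 1 and 2. These markers thus shared the low value of Gpnmb+ pool 1 with Fto, but their DBA/2J pools lay between the Gpnmb+ pools, and their part in the Fto values was not tested. The macrophage sum was also lower in Gpnmb+ pool 1 (2943 CPM) than in pool 2 (3797 CPM), against 3047 to 4177 CPM in DBA/2J. The median over the 8 macrophage markers went the other way, at 0.30 on the log2 scale (pool 1 minus pool 2). The trabecular meshwork sum was lower in pool 1 by less (1807 and 1845 CPM). Some other marker sums were higher in Gpnmb+ pool 1 than in pool 2. For nonpigmented ciliary epithelium they were 270 and 160 CPM in Gpnmb+ pools 1 and 2, against 564 to 634 CPM in DBA/2J. For skeletal muscle they were 157 and 98.1 CPM, against 158 to 412 CPM. Lens markers were sparse, with sums of 16.3 to 23.7 CPM per pool, and their median log2 difference (Gpnmb+ pool 1 minus pool 2) was -1.54. In bulk tissue, fewer cells of a type and less RNA per cell cannot be told apart, for Fto or for any gene below.

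**Figure D2:**
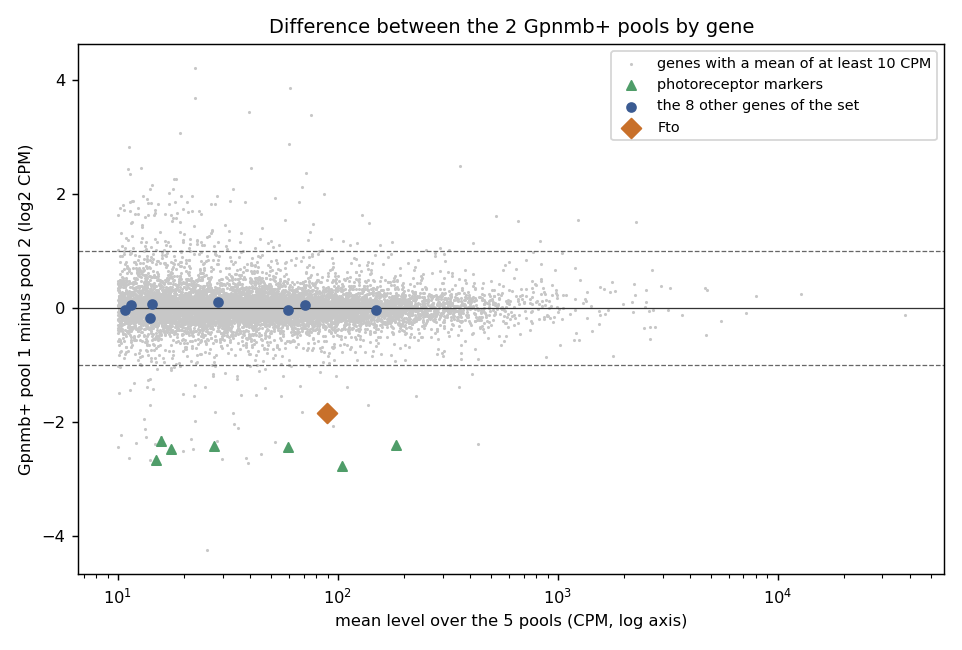
Log2 CPM in Gpnmb+ pool 1 minus Gpnmb+ pool 2 (vertical axis) against the mean CPM over the 5 pools (horizontal log axis) for the 10467 genes with a mean of at least 10 CPM. Grey points are genes, dashed lines mark 2-fold, green triangles the 7 photoreceptor markers, blue points the 8 other genes of the set and the orange diamond Fto, which lies at -1.84 while the blue points lie between -0.18 and 0.10.

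A second view asked for genes with steady DBA/2J pools and unequal Gpnmb+ pools, whatever the direction. Among the 238 genes at least 2-fold apart, 25 had DBA/2J pools within 0.25 on the log2 scale. Of these 25, 22 were higher in Gpnmb+ pool 1 and 3 were lower there. Every DBA/2J pool lay above both Gpnmb+ pools for 13 of the 25: Fto among the 3 and 12 of the 22 that were higher in pool 1. Over all tested genes the groups did not overlap, in either direction, for 34.5%. The 25 were filtered on the pools of both genotypes, so this share is not a like reference for the 13. The other 2 of the 3 lower in Gpnmb+ pool 1 were Ankrd33b and Pigr. Ankrd33b had 386 and 934 counts in Gpnmb+ against 447 to 501 in DBA/2J. Pigr, the receptor that carries polymeric immunoglobulins across epithelia, had 1280 and 2739 counts against 1008 to 1121.

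The genes with the profile most like that of Fto over the 5 pools were found by the Euclidean distance between log2 CPM profiles, each centred on its own mean, among the 10467 genes. For scale, a gene with no change over the pools would lie 2.14 from Fto. In order of distance, from 1.02 to 1.23, the 8 nearest were Dennd2c, Vat1l, Mpc1 (a subunit of the mitochondrial pyruvate carrier), Stab2 (a scavenger receptor), Slc22a8 (an organic anion transporter), Pak3, Car2 (carbonic anhydrase II) and Gfap (a glial intermediate filament). Dennd2c had 1273, 1130 and 1003 counts in DBA/2J against 323 and 431 in Gpnmb+. Vat1l, also on chromosome 8, had 19273, 18087 and 22113 counts in DBA/2J against 9202 and 13900 in Gpnmb+. Each of the 8 was lowest in Gpnmb+ pool 1, which choosing them by likeness to Fto favours. Their Gpnmb+ pools differed less than those of Fto, by -0.36 (Gfap) to -0.97 (Car2) on the log2 scale. The 8 other genes of the set were not near Fto, at distances of 2.11 (Ythdf2) to 2.52 (Irx3), with between 4117 and 9711 genes closer.

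**Figure D3:**
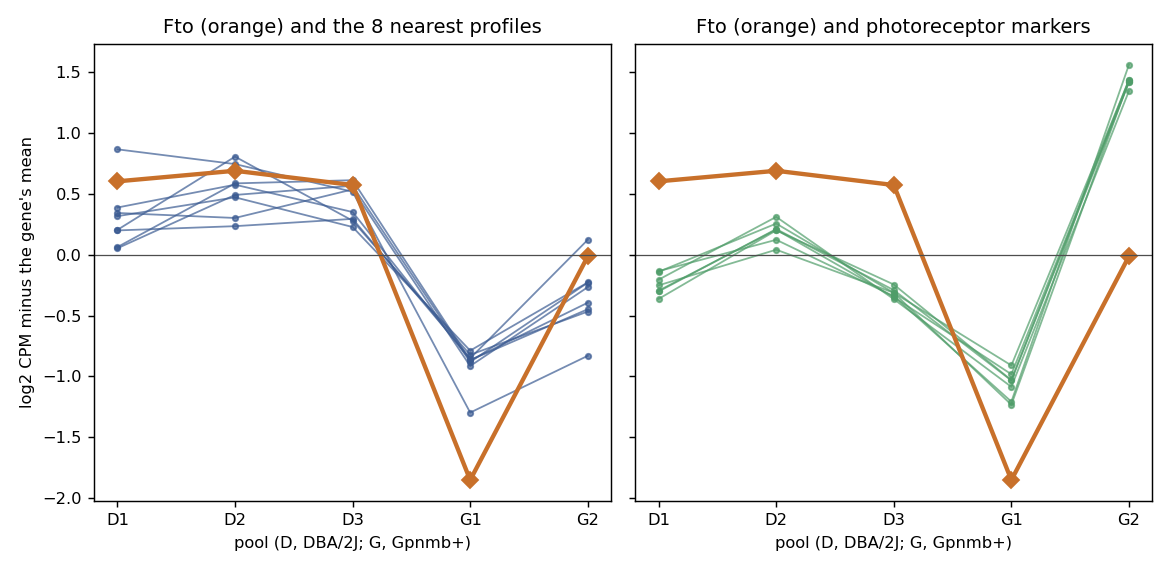
Log2 CPM of each gene minus its mean over the 5 pools (vertical axes) in DBA/2J pools (D1 to D3) and Gpnmb+ pools (G1, G2). Left, the 8 genes nearest to Fto in blue; right, the 7 photoreceptor markers in green; Fto is orange in both. The nearest genes, chosen by likeness to Fto, are lowest in Gpnmb+ pool 1 and, except Car2, below their mean in both Gpnmb+ pools. The photoreceptor markers are lowest in Gpnmb+ pool 1 and highest in Gpnmb+ pool 2.

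The neighbours did not follow Fto. None of the 8 other genes of the set was called between genotypes by edgeR's quasi-likelihood test (Benjamini-Hochberg adjusted p of at most 0.05 and at least 1.5-fold), where 0.796% of all tested genes were called. None of the 8 had an unadjusted p under 0.05, as 15.9% of all tested genes did. None of the 8 was 2-fold apart between the Gpnmb+ pools. The pools of the 2 genotypes did not overlap for 3 of the 8, Irx3, Irx5 and Wtap, all lower in DBA/2J. Over all tested genes the share without overlap, in either direction, was 34.5%. The median log2 difference (DBA/2J minus Gpnmb+) of the 8 was -0.07, and that of all tested genes -0.02.

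Rpgrip1l, which shares its start region with Fto, had 583, 629 and 640 counts in DBA/2J against 757 and 696 in Gpnmb+. These were 13.1, 14.7 and 14.3 CPM and 14.9 and 14.2 CPM, so the groups overlapped and pool 1 of Gpnmb+ was the highest of the 5. The log2 difference between genotypes was -0.05 (95% interval -0.33 to 0.22, adjusted p = 0.854 by edgeR's quasi-likelihood test). Between the Gpnmb+ pools Rpgrip1l differed by 0.07, where Fto differed by -1.84.

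Irx3 and Irx5 encode homeodomain transcription factors of the Iroquois family and lie 130.083 kb and 689.183 kb beyond the end of Fto. Irx3 (chr8:92525153-92528695, minus strand) had 12.0, 9.23 and 9.57 CPM in DBA/2J against 13.5 and 13.0 CPM in Gpnmb+, from 396 to 686 counts. Every DBA/2J pool was below both Gpnmb+ pools, but pool 1 of DBA/2J was nearer to Gpnmb+ than to the other 2 DBA/2J pools. The log2 difference was -0.37 ± 0.15 (SE) with a 95% interval of -0.74 to 0.00, an unadjusted p of 0.0518 and an adjusted p of 0.319 by edgeR's quasi-likelihood test.

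Irx5 (chr8:93084253-93102914, plus strand) had 10.6, 10.8 and 8.43 CPM in DBA/2J against 11.8 and 12.1 CPM in Gpnmb+. Its groups did not overlap either, with DBA/2J pool 3 the lowest. The log2 difference was -0.27 (95% interval -0.63 to 0.10, adjusted p = 0.448 by edgeR's quasi-likelihood test). The summed trabecular meshwork markers were also lower in each DBA/2J pool than in each Gpnmb+ pool. By their fitted values 7 of the 8 markers were lower in DBA/2J and 1 was higher, with a median log2 difference of -0.84. Of the 8, 4 were called, where 0.796% of all tested genes were. The part of these markers in the Irx3 and Irx5 values was not tested. The Gpnmb+ pools agreed within 0.05 on the log2 scale for Irx3 and within 0.03 for Irx5.

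All 6 Iroquois genes were lower in DBA/2J by their fitted values, with a median log2 difference of -0.32. None was called, where 0.796% of all tested genes were. By edgeR's quasi-likelihood test 2 of the 6 (Irx1 and Irx4) had an unadjusted p under 0.05, where 15.9% of all tested genes did. The groups did not overlap for 4 of the 6 (Irx1, Irx3, Irx4 and Irx5), all lower in DBA/2J. Over all tested genes the share without overlap, in either direction, was 34.5%. Irx1, on chromosome 13, had 114, 136 and 123 counts in DBA/2J against 229 and 174 in Gpnmb+, a log2 difference of -0.51 (adjusted p = 0.303 by edgeR's quasi-likelihood test). Irx4 had 1, 0 and 0 counts in DBA/2J against 2 and 11 in Gpnmb+, too few for a fold change. Its values are nevertheless included in the numbers and the median given here for the 6 genes. Irx2 and Irx6 had groups that overlapped.

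Within 2 Mb on either side of Fto the annotation holds 82 identifiers of the table, 28 of which were tested. Of the 27 tested genes other than Fto, 8 had a higher and 19 a lower fitted value in DBA/2J (median log2 difference -0.14). None was called, where 0.796% of all tested genes were. The lowest p-values belonged to Crnde, a long noncoding RNA gene beside Irx5, at 21, 32 and 29 counts in DBA/2J against 77 and 69 in Gpnmb+ (log2 difference -1.23, adjusted p = 0.131 by edgeR's quasi-likelihood test). Next were Lpcat2, an enzyme of phospholipid remodelling (0.58, adjusted p = 0.163), and Ces1e, a carboxylesterase (-1.06, adjusted p = 0.205). Of the 27, 5 had an unadjusted p under 0.05, where 15.9% of all tested genes did.

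Among the 9 neighbours in this window with a mean of at least 10 CPM, none was 2-fold apart between the Gpnmb+ pools. Their differences ran from -0.66 (Ces1d) to 0.59 (Mmp2, a gelatinase), names chosen after the values were seen. The 3 genes in the window that were 2-fold apart, Gm45463, Ces1f and Gm45708, had at most 37 counts in any pool. The 8 genes annotated inside Fto, Gm45427, 4831440D22Rik, Gm45292, Gm45289, Gm45290, Gm45294, Gm3235 and Gm45293, had at most 9 counts each and 7 to 20 counts in all per pool. No neighbour with a mean of at least 10 CPM therefore differed between the Gpnmb+ pools by as much as Fto, and no gene inside Fto had enough counts to compare.

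**Figure D4:**
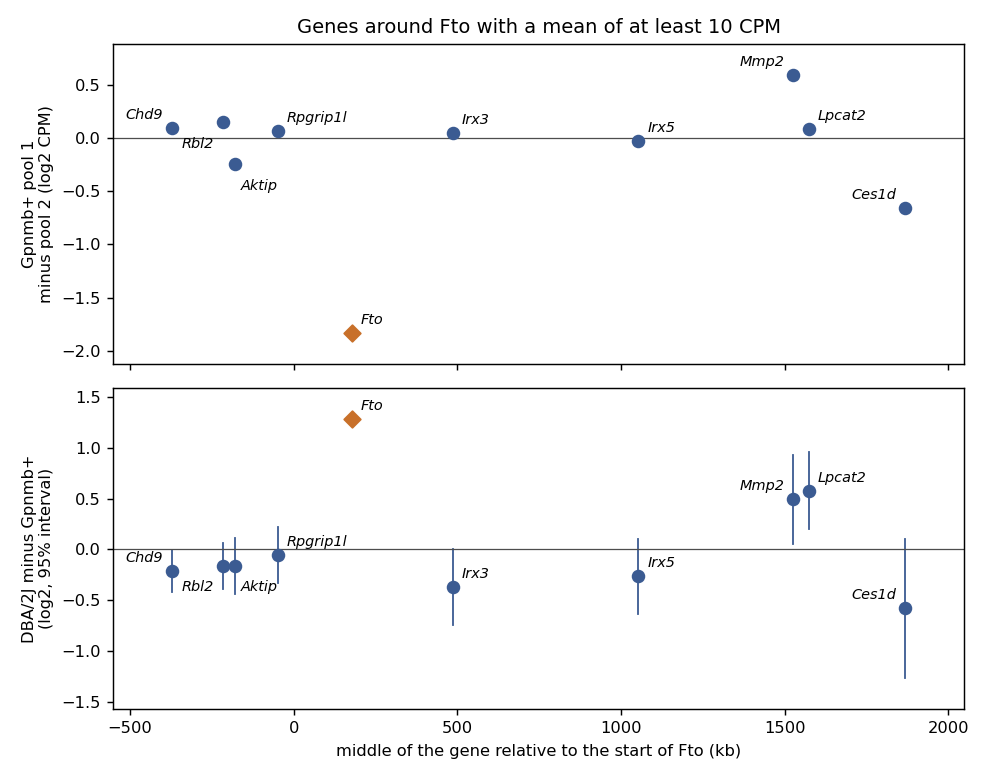
Genes around Fto with a mean of at least 10 CPM, by the distance of the middle of the gene from the start of Fto in kb. Top, log2 CPM in Gpnmb+ pool 1 minus Gpnmb+ pool 2; bottom, fitted log2 difference of DBA/2J minus Gpnmb+ with 95% intervals (none for Fto, which was chosen by its values). In the top panel Fto lies at -1.84 and its 9 neighbours between -0.66 and 0.59.

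None of the 3 m6A writers of the set passed the test between genotypes. Mettl3, the catalytic subunit (chromosome 14), had 622, 520 and 643 counts in DBA/2J against 698 and 764 in Gpnmb+, or 14.0, 12.1 and 14.4 CPM and 13.8 and 15.6 CPM. Mettl14, its partner (chromosome 3), had 28.1, 28.7 and 28.7 CPM in DBA/2J against 29.4 and 27.4 CPM in Gpnmb+, from 1234 to 1491 counts. Wtap, the adaptor (chromosome 17), had 55.3, 58.3 and 60.6 CPM in DBA/2J against 61.0 and 62.8 CPM in Gpnmb+, from 2458 to 3094 counts. Mettl3 and Mettl14 overlapped between genotypes, and the 3 Wtap values of DBA/2J ended just below the lower Gpnmb+ pool.

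The log2 difference was -0.12 (95% interval -0.44 to 0.20, adjusted p = 0.713) for Mettl3, by edgeR's quasi-likelihood test. For Mettl14 it was 0.01 (-0.21 to 0.22, adjusted p = 0.977), with DBA/2J pools within 0.03 of each other on the log2 scale, the narrowest span of the set. For Wtap it was -0.09 (-0.29 to 0.11, adjusted p = 0.637). None of the 13 writer genes was called, where 0.796% of all tested genes were. None had an unadjusted p under 0.05, where 15.9% of all tested genes did. By fitted values 7 of the 13 were higher and 6 lower in DBA/2J, with a median of 0.01. The 3 with the lowest p-values were Trmt112 (0.14, adjusted p = 0.515), which stabilises methyltransferases, Zc3h13 (-0.12, adjusted p = 0.524) and Rbm15b (-0.15, adjusted p = 0.552), which belong to the writer complex with Wtap.

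Alkbh5, the other m6A eraser (chromosome 11), was the most abundant of the 9 genes by counts, with 6754, 6054 and 6952 in DBA/2J against 7583 and 7466 in Gpnmb+. Its levels of 151.9, 141.0 and 155.8 CPM in DBA/2J against 149.5 and 152.6 CPM in Gpnmb+ overlapped. The log2 difference was -0.01 (95% interval -0.22 to 0.19, adjusted p = 0.953 by edgeR's quasi-likelihood test), and its sign turned in some alternative fits. Alkbh5 thus differed by -0.03 between the Gpnmb+ pools in which Fto, which removes the same mark, differed by -1.84.

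The AlkB family, whose members demethylate RNA, DNA or protein, had 8 tested genes besides Fto. None was called, where 0.796% of all tested genes were. Of the 8, 5 had a higher and 3 a lower fitted value in DBA/2J (median 0.02). None had an unadjusted p under 0.05, where 15.9% of all tested genes did. Alkbh3 (-0.28, adjusted p = 0.477), Alkbh2 (0.21, adjusted p = 0.610) and Alkbh1 (-0.21, adjusted p = 0.672) had the lowest p-values in edgeR's quasi-likelihood test. The 2 Gpnmb+ pools of these 8 genes differed by -0.24 to 0.33 on the log2 scale.

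Ythdf2, the reader (chromosome 4), had 3426, 3237 and 2914 counts in DBA/2J against 3563 and 3316 in Gpnmb+. These were 77.1, 75.4 and 65.3 CPM and 70.2 and 67.8 CPM, so both Gpnmb+ pools lay inside the range of DBA/2J. The log2 difference was 0.07 (95% interval -0.17 to 0.32, adjusted p = 0.772 by edgeR's quasi-likelihood test). Of the 13 reader genes, 12 were tested and none was called, where 0.796% of all tested genes were. Of the 12, 8 had a higher and 4 a lower fitted value in DBA/2J, with a median of 0.04.

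Igf2bp1, which binds marked messenger RNA and protects it from decay, had the lowest p-value of the readers. It had 244, 272 and 431 counts in DBA/2J against 222 and 167 in Gpnmb+, a log2 difference of 0.88 with an unadjusted p of 0.0224 and an adjusted p of 0.233 by edgeR's quasi-likelihood test. Ythdc1, the nuclear reader, had 2465, 2397 and 2842 counts in DBA/2J against 3270 and 3538 in Gpnmb+ (-0.23, adjusted p = 0.352), with groups that did not overlap in CPM. Rbmx, an X-linked RNA-binding protein, had a difference of 0.16 (adjusted p = 0.543). Over the 26 tested writers, readers and Alkbh5, the Gpnmb+ pools differed by -0.33 to 0.48 and none was 2-fold apart.

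These intervals bound what could be seen. For the 5 m6A genes of the set other than Fto, no interval reached past 1.36-fold in either direction, and for all 8 other genes none reached past 1.67-fold, the bound for Irx3. Smaller genotype differences could not be told from none with 3 pools against 2. All 23 writers, readers and AlkB genes other than Fto with a mean of at least 10 CPM had intervals inside 1.5-fold. With the smaller tail doubled, the smallest two-sided p that an exact permutation test of 3 pools against 2 allows is 0.2, which is why p-values were taken from the fit over all tested genes.

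**Figure D5:**
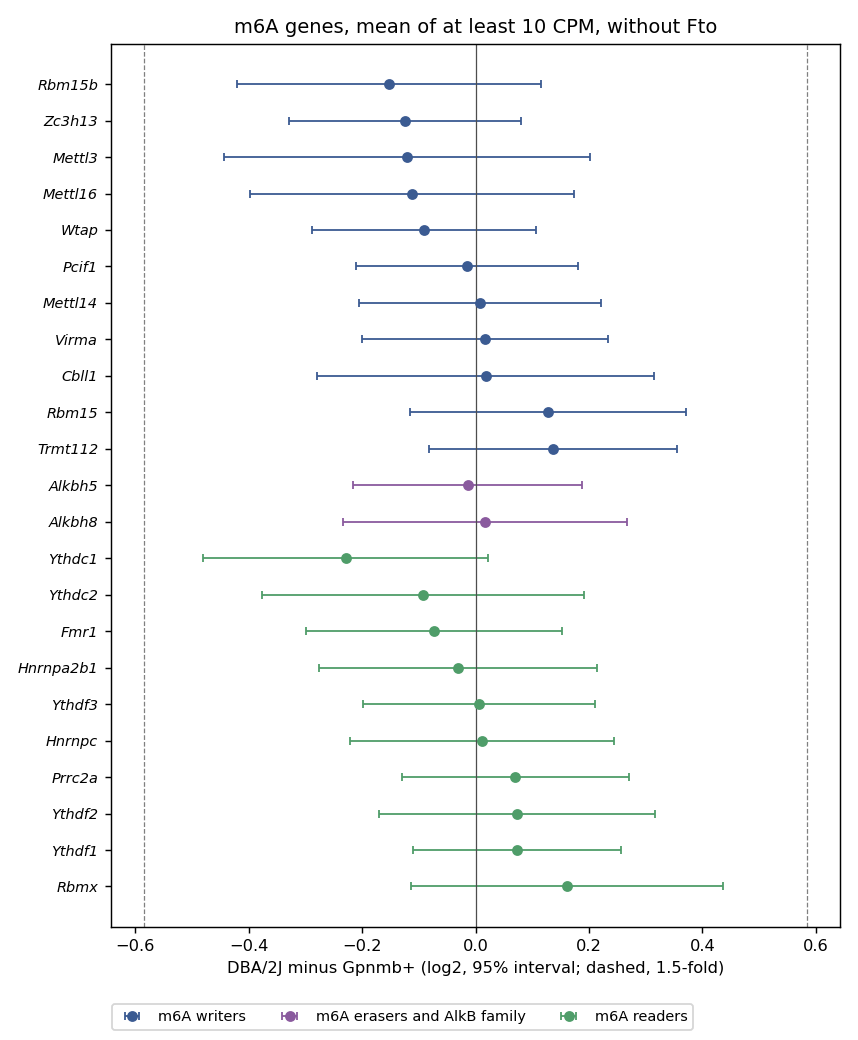
Fitted log2 difference of DBA/2J minus Gpnmb+ (horizontal axis) with 95% intervals for the 23 m6A writers (blue), AlkB family genes (purple) and readers (green) with a mean of at least 10 CPM, without Fto. Dashed lines mark 1.5-fold, and all 23 intervals lie between them.

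Levels between genes were compared per kilobase, and the order depended on which length was used. Per kilobase of canonical transcript, Fto stood first in DBA/2J at 31.1 ± 1.32 CPM per kb (SD, n = 3). Alkbh5 (24.7 ± 1.27) and Wtap (24.3 ± 1.11) followed and did not differ beyond their spread. Ythdf2 (13.7 ± 1.20), Mettl14 (10.4 ± 0.13) and Mettl3 (6.65 ± 0.60) came next in CPM per kb, each separated from the one above. Irx5 (3.87 ± 0.51) and Irx3 (3.74 ± 0.56) overlapped, and Rpgrip1l was lowest at 1.97 ± 0.11 CPM per kb. In Gpnmb+ pool 1 the Fto level per kilobase was 5.59, below that of Mettl3 at its lowest pool, 5.96.

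Per kilobase of all annotated exons merged, which for Fto are 15371 bases against 3767 in the canonical transcript, Alkbh5 stood first in DBA/2J at 23.7 ± 1.22 CPM per kb (SD, n = 3) and Ythdf2 followed at 12.0 ± 1.05. Fto (7.62 ± 0.32) and Wtap (7.35 ± 0.34) then overlapped. Irx5, in place 7, and Rpgrip1l, the lowest of the 9, kept their places in DBA/2J under both lengths, and the other 7 genes did not. The comparison of a gene between pools does not depend on its length.

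Rpgrip1l belongs to the ciliary transition zone, the gate at the base of the cilium, and the 23 listed genes of this structure were all tested. None was called, where 0.796% of all tested genes were. By their fitted values 11 were higher and 12 lower in DBA/2J, with a median of -0.02. An unadjusted p under 0.05 was found for 4, where 15.9% of all tested genes had one. Tctn2 had 687, 689 and 736 counts in DBA/2J against 642 and 555 in Gpnmb+ (0.42, adjusted p = 0.165 by edgeR's quasi-likelihood test). Cep290 had 816, 747 and 857 counts in DBA/2J against 1114 and 1220 in Gpnmb+ (-0.36, adjusted p = 0.205), and Tmem237 gave -0.29 (adjusted p = 0.298). The only gene of this list 2-fold apart between the Gpnmb+ pools was Rpgrip1, a photoreceptor gene related to Rpgrip1l, named after its values were seen, at -1.87 with 89 and 320 counts in Gpnmb+ pools 1 and 2 and 71 to 79 in DBA/2J.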

How the data were processed

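RNA was measured in 3 DBA/2J and 2 Gpnmb+ pools, from libraries made with the Kapa mRNA HyperPrep kit. The authors used fastp for trimming and STAR for alignment to GRCm39 (Ensembl annotation), summed the reads with a unique alignment per gene, and deposited these raw counts. Their tool versions and the strand setting are not given in the sources used here. Names and positions came from GENCODE M39 for 56323 of 56941 identifiers, and promoter windows from RefSeq (GRCm38.p6).

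Tests used edgeR 4.0.16 (limma 3.58.1 and DESeq2 1.42.0 as alternatives) under R 4.3.3, and tables Python 3.11.15, pandas 2.3.3 and scipy 1.17.1. A gene needed 10 counts in any pool to be tested, and TMM scaled the library sizes. edgeR's quasi-likelihood test compared genotypes without covariates, with calls at a Benjamini-Hochberg adjusted p of at most 0.05 and 1.5-fold. Log2 CPM used a prior count of 2. The test was checked on simulated data.

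Members and gene lists were chosen with earlier results of these data known. Named genes were the members, genes overlapping Fto, the 8 most like it, and, in each list, called genes and the 3 of lowest p. Alternatives were other scalings, tests, count filters and thresholds, the pool number as a block, each pool left out, and another transcript length, the last chosen after seeing the data. Proteomics was not analysed here. Some photoreceptor results are left out.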

Additional observations from a re-analysis of the deposited data

How the results depend on the processing

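The genotype differences of Rpgrip1l, Irx3, Irx5, Mettl3, Wtap and Ythdf2 kept their direction in every alternative run, and none of the 8 genes tested was called in any of 104 values, the lowest adjusted p being 0.25 (Irx3). Near 0, Alkbh5 turned to 0.0061 without a count filter and ran from -0.044 to 0.027 with each pool left out, over which Mettl14 ran from -0.043 to 0.062. The Fto difference between genotypes ran from 0.64 to 2.48 with each pool left out, and between the Gpnmb+ pools from -1.84 to -1.83 over other scalings and prior counts. Genes called between genotypes, 157 in all, numbered 927 with DESeq2, 360 without a count filter, 1710 with unadjusted p, and 1 to 217 with each pool left out: 6, 1 and 17 without DBA/2J pools 1, 2 and 3, and 217 and 2 without Gpnmb+ pools 1 and 2. With a Gpnmb+ pool left out, the lone pool is assumed to vary like the DBA/2J pools. With unadjusted p, 1 reader (Igf2bp1), 1 Iroquois gene (Irx4), 1 transition zone gene (Rpgrip1) and 2 genes near Fto (Crnde and Ces1e) were called, DESeq2 called the same 2 near Fto (adjusted p 0.0472 and 0.0470), and leaving out a pool called 0 to 1 transition zone genes, Rpgrip1 without Gpnmb+ pool 1. Canonical in place of merged length moved the mean level over all pools to 23.8 CPM per kb for Fto.

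The pool numbers do not establish a pairing: same-numbered pools deviated together with correlations of 0.28 and 0.25, over 2 pairs only, and no label ties them. The 2 Gpnmb+ pools deviate from their mean by equal and opposite amounts, so these 2 correlations are not independent. With the pool number as a replicate block 220 genes were called, none of them among the 8 tested genes of the set. With 2 Gpnmb+ pools, what is typical of that genotype for Fto RNA cannot be judged here.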
